A study of Homo sapiens with 18 samples.

Results

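The genes described here are 9 regulators and markers of the gut epithelium, taken by symbol from a fixed list: CDX1, CDX2, HNF4A, EHF, ELF3, VIL1, TFF3, LGALS4 and A1CF. They are 9 of 37292 genes that were listed in at least 1 of 3 deposited RNA sequencing tables, and 6 of them (CDX2, HNF4A, EHF, ELF3, VIL1 and LGALS4) were listed in all 3. The 6 groups of cultured cells had 3 libraries each. SW480-P is the parental SW480 colon cancer line, and SW480-LM3 is a line that was derived from it by 3 selection rounds after injection of cells into the spleen. LX-2 cells are an immortalised line of human hepatic stellate cells. EV-XP-NID1-LX-2 cells were incubated for 48 hours with vesicles containing NID1 (nidogen 1, a basement membrane glycoprotein), and EV-XP-LX-2 cells with control vesicles. LV5-NID1 cells are SW480 that overexpress NID1 and received GW4869, which blocks vesicle release through neutral sphingomyelinase, for 72 hours. LV5 cells served as their control. Whether they too received GW4869 is not stated, so overexpression and inhibitor cannot be told apart, and the labels do not explain the letters XP.

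As background, CDX1 and CDX2 are caudal-type homeobox factors that specify intestinal identity and keep it in the adult epithelium. HNF4A is a nuclear receptor that acts with CDX2 at enhancers of enterocyte genes, and EHF and ELF3 are ETS factors of simple epithelia. VIL1 (villin) bundles actin in microvilli, TFF3 is a trefoil peptide of goblet cells, LGALS4 is a galectin of enterocytes, and A1CF is the RNA-binding cofactor of APOB mRNA editing in gut and liver. In GENCODE 29 (GRCh38) the transcription factor genes lie at chr5:150166795-150184558 (CDX1), chr13:27962137-27971139 (CDX2), chr20:44355700-44434596 (HNF4A), chr11:34621093-34661057 (EHF) and chr1:202007945-202017188 (ELF3). The others lie at chr2:218419092-218453295 (VIL1), chr21:42311667-42315651 (TFF3), chr19:38801671-38813364 (LGALS4) and chr10:50799409-50885675 (A1CF). All 9 are protein-coding, and the build behind the deposited tables is not given in the labels or headers.

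Levels are normalised signal for SW480-P and SW480-LM3, from 15504205 to 18965163 and from 15531517 to 16586016 recovered reads per library, and TPM, a read share corrected for transcript length, for the other groups, whose depth is unknown. The tables were normalised separately, so levels are tested only within a table. Called means a Benjamini-Hochberg adjusted p under 0.05 in limma, over all genes at 1 or more in at least 3 of the 6 libraries of a table. Nothing in the labels says that replicates were separate cultures, so a p reflects the spread between libraries alone, which may be technical. NID1 was 0 to 0.04 TPM in LV5 and 348 to 379 TPM in LV5-NID1. Across 14659 genes, group mean ranks of SW480-LM3 correlated with SW480-P at a Spearman rho of 0.789, with LV5 at 0.702 and with EV-XP-LX-2 at 0.701, while SW480-P reached 0.859 with LV5. Genes are not independent replicates. SW480-LM3 thus ranked no closer to the other SW480 cells of LV5 than to stellate cells. EV-XP-LX-2 itself correlated with LV5 at 0.81 and with SW480-P at 0.745, so these ranks do not settle which line a library came from. Change during selection cannot be told apart from an origin of these libraries in another line.

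Promoters of 6 of the 9 genes were found in the RefSeq table of GRCh38.p14, as 250 bases before and 50 from the start site on. The sequences of 4 transcription factor genes are shown because these genes differed in how they changed: CDX2 was not called while HNF4A, EHF and ELF3 rose in SW480-LM3, and ELF3 alone was called in LV5-NID1. Capitals mark matches to short motifs searched on both strands, and positions count from the start site. HNF4A and EHF have 2 starts in the table, and the second of each is printed. The gene tables do not separate the starts.

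CDX2 chr13:27969266-27969565, minus strand: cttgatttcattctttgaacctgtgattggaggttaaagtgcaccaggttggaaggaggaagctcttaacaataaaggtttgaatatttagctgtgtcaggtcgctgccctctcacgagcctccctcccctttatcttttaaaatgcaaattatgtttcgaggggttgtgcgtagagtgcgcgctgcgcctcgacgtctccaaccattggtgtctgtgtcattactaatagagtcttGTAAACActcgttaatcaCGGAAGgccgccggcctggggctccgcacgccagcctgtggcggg

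HNF4A start 2 chr20:44400989-44401288, plus strand: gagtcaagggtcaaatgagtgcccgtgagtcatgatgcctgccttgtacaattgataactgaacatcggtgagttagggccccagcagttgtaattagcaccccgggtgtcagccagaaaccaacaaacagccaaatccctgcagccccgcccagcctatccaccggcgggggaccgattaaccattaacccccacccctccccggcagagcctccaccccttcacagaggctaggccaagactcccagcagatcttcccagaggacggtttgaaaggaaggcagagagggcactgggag

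EHF start 2 chr11:34632316-34632615, plus strand: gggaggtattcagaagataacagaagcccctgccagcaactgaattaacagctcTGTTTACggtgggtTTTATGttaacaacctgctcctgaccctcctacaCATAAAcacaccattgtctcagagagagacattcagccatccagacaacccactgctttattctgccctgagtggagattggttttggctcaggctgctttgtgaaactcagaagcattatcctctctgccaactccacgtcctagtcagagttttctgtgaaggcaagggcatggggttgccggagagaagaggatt

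ELF3 chr1:202010337-202010636, plus strand: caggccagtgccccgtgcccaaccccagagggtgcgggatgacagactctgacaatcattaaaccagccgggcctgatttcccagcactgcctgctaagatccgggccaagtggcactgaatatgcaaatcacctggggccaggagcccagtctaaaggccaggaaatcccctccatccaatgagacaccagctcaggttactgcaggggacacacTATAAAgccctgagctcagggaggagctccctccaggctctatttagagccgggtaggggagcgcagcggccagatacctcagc

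In CDX2 the capitals are GTAAACA (reverse complement of the forkhead letters TGTTTAC) at -13 and the ETS letters CGGAAG at 6. HNF4A start 2 holds no match, and is shown beside the others for comparison. EHF start 2 holds the CDX letters TTTATG at -182, their reverse complement CATAAA at -148 and the forkhead letters TGTTTAC at -196. ELF3 holds the TATA letters TATAAA at -34. In 35116 promoters of the same length these motifs were found in 3.42% (forkhead), 19.46% (ETS), 10.58% (CDX) and 11.53% (TATA). The HNF4 letters CAAAGTCC, present in 1.2% of promoters, matched in none of the members' promoters. The first start of EHF, the first of HNF4A and the LGALS4 promoter held no match to any of the motifs, and A1CF held TTTATA at -207 and TATAAA at -205, which overlap. A match describes letters and not binding.

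The first comparison concerns what distinguishes the metastatic SW480-LM3 cells from SW480-P. HNF4A, EHF, ELF3, VIL1, TFF3 and A1CF rose in SW480-LM3, while the homeobox factor CDX2 was not called. In cultures measured in bulk, more cells with a transcript and more transcript per cell cannot be told apart. The rises spanned 2.31-fold for ELF3 to at least 2430-fold for TFF3. Among SW480-LM3 and SW480-P libraries 43.9% of all 14527 genes tested were called higher and 43.9% lower, 87.8% together. Of the 9 members, 6 were called higher, 1 was tested and not called, LGALS4 was under the low filter and CDX1 was not listed. EHF, TFF3 and A1CF passed that filter only through their SW480-LM3 values and so could only be called higher. Among the members that passed it in both groups, HNF4A, ELF3 and VIL1 rose and CDX2 was not called. The groups did not overlap, with SW480-LM3 higher, for 7 of the 8 members listed, against 43.4% of all genes listed.

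CDX2 had signals of 19.4, 14.3 and 15.5 in the SW480-P libraries and 15.9, 17.4 and 19.8 in the SW480-LM3 libraries. The groups overlap, with 1 parental library near the top of the range. The log2 fold change was 0.11 (SE 0.116, adjusted p = 0.361), and its 95% interval of -0.13 to 0.36 covers a fold of 0.911 to 1.29. The groups held 737 and 938 reads of CDX2. Under library-total scaling, which moves the median of all genes from -0.004 to 0.26, CDX2 was called higher (log2 0.39, adjusted p = 0.00632). With quantile normalization the difference was -0.09, so its direction depends on the scaling.

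HNF4A was at 4.56, 5.36 and 4.65 in SW480-P and at 129, 129.8 and 126 in SW480-LM3. All 3 SW480-LM3 libraries lay within a few percent of each other and far above every parental library. The mean rose from 4.86 ± 0.438 to 128 ± 1.72 (SD, n = 3), 26.4-fold (log2 4.47, SE 0.0751, adjusted p = 4.96e-16). EHF was at 0.214, 0.757 and 0.846 in SW480-P, 28 reads in all, and at 131, 124 and 127 in SW480-LM3. EHF was thus near the detection limit in the parental libraries and high in each SW480-LM3 library, with means of 0.606 ± 0.342 and 128 ± 3.63 (log2 6.35, SE 0.137, adjusted p = 5.94e-15). Its ETS relative ELF3 was well above that limit in both groups, at 37.4, 34.25 and 32.1 in SW480-P and 75.4, 80.4 and 83.5 in SW480-LM3. ELF3 rose 2.31-fold without overlap, the smallest rise among the called members (log2 1.18, SE 0.0643, adjusted p = 1.76e-10).

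VIL1, the villin of microvilli, was at 9.33, 11.4 and 9.59 in SW480-P and at 384, 395 and 374 in SW480-LM3. It had the highest signal of the 8 members in SW480-LM3 and rose 38.1-fold (log2 5.12, SE 0.065, adjusted p = 4.03e-17). TFF3 had no read in any SW480-P library and signals of 152, 163 and 166 in SW480-LM3, from 8457 reads. Set against a floor of 3 reads over the SW480-P group, TFF3 was at least 2430-fold higher (adjusted p = 6.17e-17). A1CF had 1 read in all of SW480-P, in the third library, and signals of 9.65, 8.13 and 6.78 in SW480-LM3, from 430 reads. The ratio of A1CF counts was 370 with an exact interval of 66.1 to 14700, which covers counting error only (log2 of value plus 1, 3.16, SE 0.149, adjusted p = 3.5e-11). LGALS4 stayed low in both groups, at 0, 0.291 and 0.211 in SW480-P and 0.582, 1.17 and 0.976 in SW480-LM3, 8 reads against 48. All SW480-LM3 libraries were above all SW480-P libraries for LGALS4, as were those of 36.5% of the genes under the filter. Without the filter its log2 difference was 0.71 (adjusted p = 0.00215), where 43.5% of all genes were called higher.

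**Figure D1:**
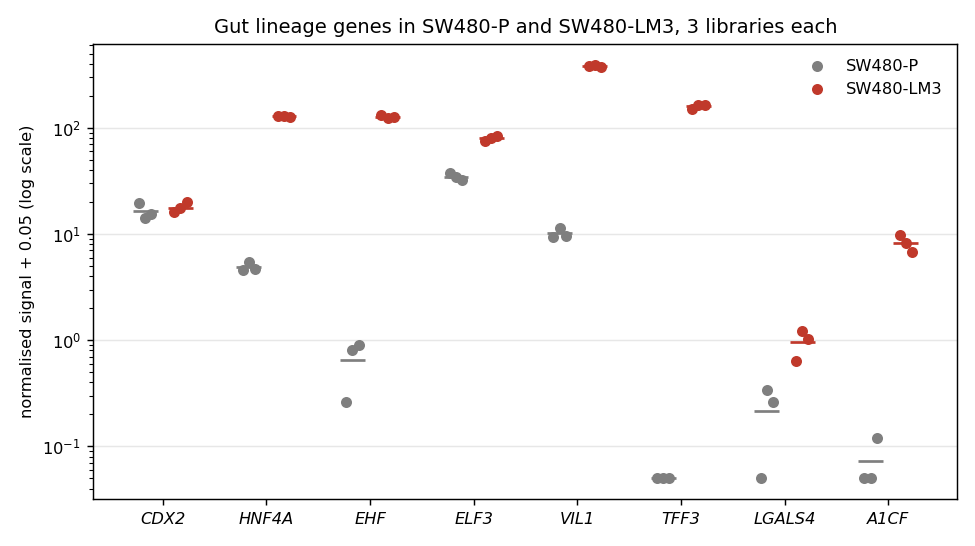
Normalised signal plus 0.05 on a log axis for the 8 members listed in SW480-P (grey) and SW480-LM3 (red). Points are libraries and lines are means. CDX2 overlaps between the groups, and the 7 other members do not, from ELF3 with a 2.31-fold difference to TFF3 with no reads in SW480-P.

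Per length of exon, rescaled to the same total in each library, the order of the genes changed. In SW480-P, ELF3 (14.8 ± 1.01) and CDX2 (12.2 ± 1.93) led, followed by VIL1 (4.49 ± 0.483) and HNF4A (2.05 ± 0.181), with means and SD over n = 3. In SW480-LM3, TFF3 led at 617 ± 30.8, followed by VIL1 at 250 ± 5.58, EHF at 131 ± 3.68 and HNF4A at 78.9 ± 0.63. ELF3 (49.9 ± 2.81), CDX2 (19.4 ± 2.27), A1CF (3.83 ± 0.654) and LGALS4 (1.55 ± 0.51) came after them. CDX2 thus moved from the leading pair in SW480-P to sixth of 8 in SW480-LM3. This is a change in order and not a fall, since its mean per length was 12.2 in SW480-P and 19.4 in SW480-LM3. Because each library was rescaled, differences between the groups on this scale are not those of the signal, and they were not tested. CDX2 and ELF3 were neighbours in SW480-P, and their percentile ranks within libraries overlapped there, at 48.5 to 55.3 and 54.3 to 57.6.

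Among 28 other gut transcription factors, 20 were listed and 19 tested, of which 11 rose and 6 fell, where 87.8% of all genes were called. Of these, 5 rises and 3 falls came from genes that reached the low filter through 1 group alone, which fixes their direction, and among the 11 genes that reached it in both groups 6 rose and 3 fell (median log2 change 0.32, against -0.004 over all genes). Among the FOXA pioneer factors, FOXA2 rose from 0.611 ± 0.163 to 75.1 ± 3.4 (SD, n = 3) and FOXA3 from 0.204 ± 0.0847 to 26.5 ± 1.66. FOXA1 fell from 2.00 ± 0.636 to no read, at least 34.5-fold lower against 3 reads over the group. HNF4G, the paralog of HNF4A, rose from 2.18 ± 0.717 to 8.31 ± 1.44. KLF5, a factor of crypt cells, rose from 44.2 ± 2.31 to 311 ± 2.91, and KLF4, a factor of differentiated cells, fell from 54.3 ± 0.911 to 13.8 ± 1.34. SOX9, a crypt and progenitor factor, rose from 8.37 ± 0.75 to 178 ± 5.42, and the homeobox factor PROX1 rose from 4.997 ± 0.249 to 163 ± 5.1. NR5A2, a nuclear receptor of crypts, went from 1.52 to no read, at least 26.3-fold lower. PROX1, SOX9 and KLF5 follow the naming rule, and the other factors named here were chosen after their values had been seen.

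**Figure D2:**
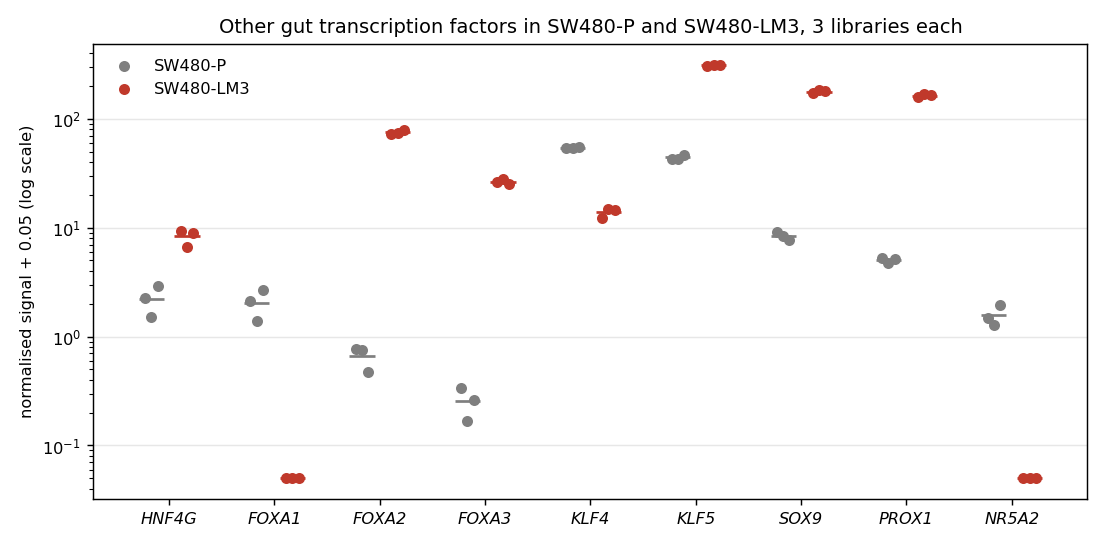
Normalised signal plus 0.05 on a log axis for 9 other gut transcription factors in SW480-P (grey) and SW480-LM3 (red). Points are libraries and lines are means. FOXA1 and FOXA2 change in opposite directions.

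Genes of the brush border, the microvillar surface that villin supports, were called higher in 14 of 14 tested, of 15 in the list. MYO1A, MYO7B, CDHR2, ANKS4B and CDH17 reached the low filter only through SW480-LM3 and so could only be higher. The 9 genes that reached it in both groups all rose (median log2 change 1.37), where 43.9% of all genes were called higher. USH1C, a scaffold of the intermicrovillar adhesion complex, rose from 9.18 ± 1.13 to 151 ± 6.01 (SD, n = 3), and its partner CDHR2 went from no read to 21.4, at least 325-fold higher. The linker EZR, the most abundant gene of the list, rose from 226 ± 3.45 to 434 ± 3.15. Of 8 enterocyte and colonocyte genes tested, 5 were higher and 3 lower, but all 5 higher and 2 of the 3 lower reached the low filter through 1 group alone, and the only gene that reached it in both, TSPAN8, fell from 29.3 to 11.2. Of the 30 in the list, 21 were not listed in the table. CEACAM1, an adhesion molecule, rose from 0.838 to 25.4, whereas the brush border hydrolases ALPI and ANPEP fell from 10.1 to 0.0197 and from 14.6 to 0.546. Secretory genes were 6 higher and 1 lower of 8 tested, and 5 of the 6 reached the low filter only through SW480-LM3, which leaves 1 higher and 1 lower of 3. The granins CHGA and CHGB, of enteroendocrine cells, went from no read to 7.72 and from 0.309 to 19.0, and the mucin MUC13 fell from 176 ± 2.79 to 58.9 ± 3.15. TFF2, a trefoil relative of TFF3, rose from 0.262 to 8.37.

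Relatives of the members were split. In the villin family FLII and SVIL rose from 114 to 215 and from 10.3 to 38.3 and CAPG fell from 94.0 to 46.7, with 5 higher and 2 lower of 7, or 3 and 1 of the 4 that reached the low filter in both groups. Of 4 galectins, LGALS9 rose from 0.165 to 16.8, while LGALS1 and LGALS3 fell from 662 to 395 and from 250 to 179, with 2 in each direction. LGALS9 reached the filter only through SW480-LM3 and has near-identical copies, so its level is uncertain. Of 3 editing partners of A1CF, RBM47 rose from 8.83, 7.46 and 11.5 to 53.9, 66.3 and 59.8, and HNRNPR and SYNCRIP fell from 530 to 303 and from 510 to 322. Known targets of HNF4A were 5 higher of 5 tested and those of CDX factors 6 of 6, but 13 of 18 and 9 of 17 were not listed, both lists hold members, and 3 and 4 of the genes called reached the filter only through SW480-LM3. Among the HNF4A targets were VIL1 and the protease inhibitor SERPINA1, which rose from 51.5 to 95.9.

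Markers of the epithelium moved with these genes: 6 of 6 were higher, 1 of them tested only through its SW480-LM3 values, and their summed signal was 3497 to 3761 in SW480-P and 12790 to 13490 in SW480-LM3. CDH1 (E-cadherin) was at 1.92, 1.11 and 1.97 in SW480-P and at 141, 151 and 153 in SW480-LM3. Of 7 stomach markers 4 were listed, with 3 higher and 1 lower, each of which reached the low filter through 1 group alone. Their sum was 4.31 to 4.58 in SW480-P, mostly GKN1 (3.37, and no read in SW480-LM3), and 91.1 to 98.7 in SW480-LM3, mostly SOX2 (84.7, from 0.784). Stellate markers were 3 higher of 5 tested (sums of 551 to 579 and 660 to 712, mostly VIM). Only SERPINA1 and APOH of 10 hepatocyte markers were listed, with sums of 48.9 to 54.9 and 96.4 to 99.1, and ALB was not listed. The single leukocyte, endothelial and pancreatic markers listed, CD68, VWF and PRSS1, were at no more than 21.9, 1.05 and 1.11 in any library. The part of other cell types in the members' rises was not tested.

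**Figure D3:**
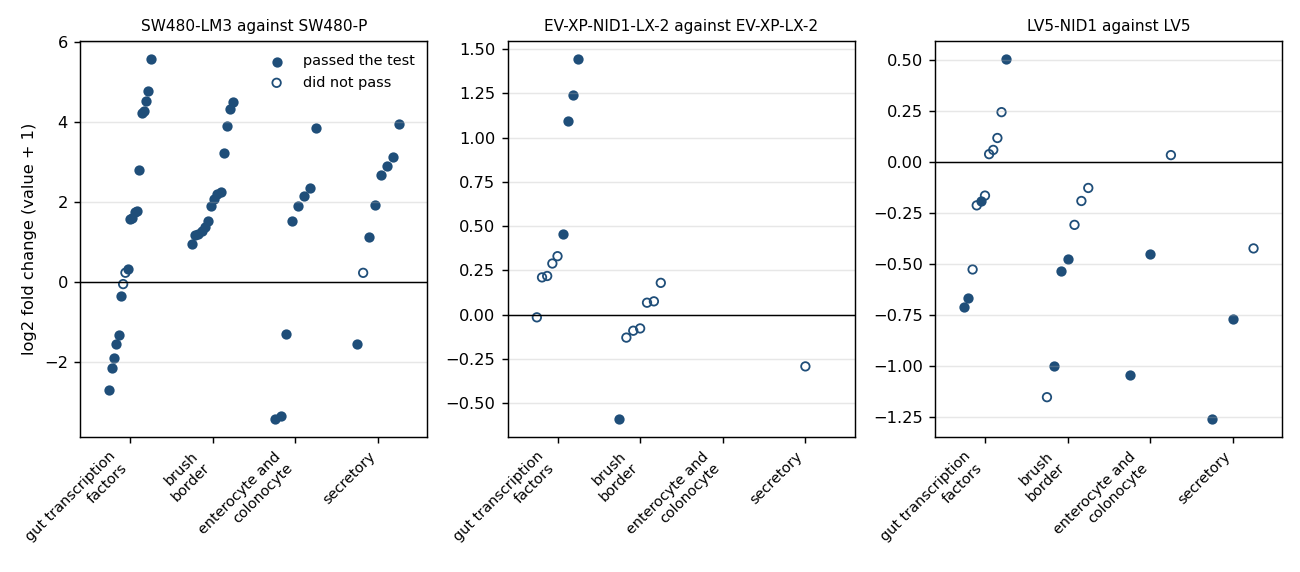
Log2 fold change of the value plus 1 for tested genes of 4 lists of gut transcription factors, brush border, enterocyte and colonocyte, and secretory genes, in the 3 comparisons, with a vertical scale of its own for each. Filled points passed limma at adjusted p under 0.05 and open points did not. Brush border genes all lie above 0 in SW480-LM3, where 5 of the 14 could only be higher, and none passed as higher in the other comparisons.

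LV5-NID1 cells, with NID1 overexpression and GW4869, were compared with LV5 cells, their control. ELF3 fell in LV5-NID1, and it was the only member at more than 2 TPM in these cells. CDX2, HNF4A, EHF and VIL1 were each below 1 TPM in every library, with lower values in LV5-NID1. LGALS4 overlapped between the groups, CDX1 and TFF3 were listed at 0 in all but 1 library, and A1CF was not listed. So 1 member was called lower and 7 were under the low filter, where 9.32% of 15508 genes tested were called lower, 7.27% higher and 16.6% in all. That balance turned with quantile normalization (1273 higher and 1054 lower, against 1127 and 1445), and without LV5 replicate 1 the counts were 185 and 528. The groups did not overlap, with LV5-NID1 lower, for 5 of the 8 members listed, against 13.2% of all genes listed. Under the filter this held for 4 of the 7 members, against 5.64% of such genes. Genes at 0 in a library of each group overlap by definition, and 15402 genes were under 1 TPM in every library. Neither share is matched to the members by level, so no enrichment can be read from them.

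ELF3 was at 72.4, 75.9 and 83.2 TPM in LV5 and at 43.8, 42.4 and 40.1 TPM in LV5-NID1. Every LV5-NID1 library was below every LV5 library, with means of 77.2 ± 5.54 and 42.1 ± 1.91 TPM (SD, n = 3). The log2 fold change was -0.86 (SE 0.0704, 95% interval -1.03 to -0.69, adjusted p = 0.00202), and the call was lost only where a log2 change of at least 1 was required. ELF3-AS1, an antisense gene that overlaps ELF3 on chromosome 1, was at 7.79 ± 1.28 TPM in LV5 and 4.95 ± 0.22 TPM in LV5-NID1 (log2 -0.55, adjusted p = 0.0303). Leaving out LV5 replicate 2 or 3 ended this call (adjusted p = 0.0989 and 0.0684), as did leaving out LV5-NID1 replicate 1 or 2 (0.0619 and 0.0987), in a range of 0.0252 to 0.0989 over alternatives. The strand used in counting is not stated, so reads from ELF3 and ELF3-AS1 cannot be told apart.

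CDX2 was at 0.16, 0.14 and 0.23 TPM in LV5 and was listed at 0 in all 3 LV5-NID1 libraries. EHF was at 0.16, 0.36 and 0.44 TPM in LV5 and at 0.02, 0.01 and 0.02 TPM in LV5-NID1. HNF4A was at 0.53, 0.66 and 0.48 TPM in LV5 and at 0.26, 0.33 and 0.21 TPM in LV5-NID1. These 3 factors did not overlap between the groups, at levels where the depth is unknown and a TPM may rest on few reads. VIL1 was at 0.23, 0.17 and 0.16 TPM in LV5 and at 0, 0.08 and 0.08 TPM in LV5-NID1. LGALS4 was at 1.45, 0.53 and 0.25 TPM in LV5 and at 0.36, 0.53 and 0.84 TPM in LV5-NID1, with the highest and the lowest library both in LV5. With no low filter CDX2 was called lower (log2 -0.23, adjusted p = 0.0286), and with a pseudocount of 0.1 as well, a setting chosen after the data had been seen, so was EHF (log2 -1.78, adjusted p = 0.0412, and 0.0189 for CDX2). These settings called 3.11% and 3.21% of genes lower. HNF4A and VIL1 were called in neither (adjusted p = 0.0832 and 0.102, then 0.169 and 0.166).

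**Figure D4:**
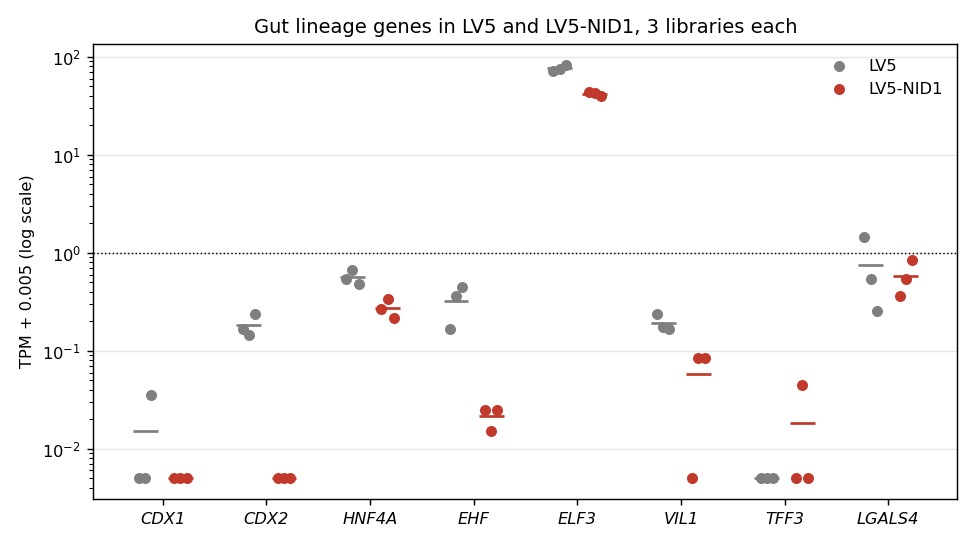
TPM plus 0.005 on a log axis for the 8 members listed in LV5 (grey) and LV5-NID1 (red). Points are libraries, lines are means and the dotted line is at 1. ELF3 is the only member above 2 TPM, and 5 members do not overlap between the groups.

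Of 11 other gut transcription factors tested here, 3 fell and 1 rose, where 9.32% of all genes tested were called lower and 7.27% higher. KLF4 fell from 84.9 ± 3.61 to 51.6 ± 2.24 TPM (SD, n = 3, log2 -0.71, adjusted p = 0.00202). KLF5 and HES1, a Notch target, fell from 54.6 to 47.6 and from 9.51 to 5.72 TPM (adjusted p = 0.0392 and 0.0445). Without LV5 replicate 1, 2 or 3, or LV5-NID1 replicate 2, 1 factor, KLF4, was called lower and 0 higher. Without LV5-NID1 replicate 1 these counts were 2 and 0. Over alternatives the adjusted p was 0.0351 to 0.224 for KLF5 and 0.0208 to 0.135 for HES1.

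Brush border genes were 3 lower of 7 tested, where 9.32% of all genes tested were called lower. SLC9A3R1 and PDZK1, scaffolds of apical transporters, fell from 62.1 to 42.6 and from 2.41 to 0.70 TPM (PDZK1 reached the low filter only through LV5), and USH1C fell from 20.6 to 14.6 TPM. The USH1C call ended when LV5 replicate 1, 2 or 3 was left out (adjusted p = 0.108, 0.11 and 0.0908) or LV5-NID1 replicate 2 (0.0937), in a range of 0.0118 to 0.11 over alternatives, and without LV5-NID1 replicate 3 the list had 5 lower. ALPI and ANPEP fell from 33.3 to 16.1 and from 43.8 to 31.7 TPM, 2 of 3 enterocyte genes tested, and both calls ended when LV5 replicate 1, 2 or 3 or LV5-NID1 replicate 2 was left out (adjusted p = 0.0512 to 0.0915). The mucins MUC1 and MUC13 fell from 131 ± 1.47 to 54.6 ± 7.14 TPM and from 239 ± 2.55 to 140 ± 10.9 TPM, 2 of 3 secretory genes tested, and both calls held in each leave-one-out fit.

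In the villin family 3 fell and 1 rose of 6 tested, where 9.32% of all genes tested were called lower and 7.27% higher. SCIN and GSN, which sever actin, fell from 11.8 to 6.88 and from 95.6 to 40.0 TPM, CAPG from 104 to 77.5 TPM, and AVIL rose from 1.86 to 3.17 TPM. Without LV5 replicate 1, 2 or 3 a single gene of this family was called lower, and GSN then had adjusted p = 0.0595, 0.0539 and 0.0522. The CAPG call also ended without LV5-NID1 replicate 2, and the AVIL call without LV5 replicate 1 or 3 or LV5-NID1 replicate 1 or 2 (adjusted p = 0.0505 to 0.0805 for both genes). None of 3 galectins and none of 3 editing partners of A1CF was called by limma, with 2 of each at an unadjusted p under 0.05, and no HNF4A or CDX target passed the filter. Without LV5-NID1 replicate 3, 2 galectins were called lower, among them LGALS1 (adjusted p = 0.00952). Epithelial markers were 3 lower and 1 higher of 4 tested, with sums of 1630 to 1671 TPM in LV5 and 927 to 988 TPM in LV5-NID1. The keratins KRT8 and KRT19 fell from 780 to 411 and from 2.92 to 0.103 TPM (KRT19 reached the low filter only through LV5), and CDH1 was at no more than 0.71 TPM in any library. EPCAM rose from 5.03 to 9.05 TPM, a call that ended without LV5 replicate 2. No stellate marker of 4 tested was called by limma (2 at an unadjusted p under 0.05), and stomach, hepatocyte, pancreatic and endothelial markers summed to at most 2.31, 2.03, 0.33 and 0.86 TPM. CD68, of the leukocyte list, fell from 3.64 to 1.35 TPM. The part of these markers in the fall of ELF3 was not tested.

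In LX-2 the question was how NID1 vesicles affect stellate cells. The gut members were barely detected there: the 7 members listed ranged from 0 to 0.39 TPM over all 6 libraries, and CDX1 and TFF3 were not listed. None passed the low filter, where 17.8% of 15802 genes tested were called higher and 24.6% lower, 42.3% in all. With quantile normalization 3724 genes were higher and 3564 lower, and with median-ratio scaling 3858 and 3675, against 2805 and 3882, so the excess of lower calls depends on the scaling. All 7 overlapped between the groups, while 14.2% of all genes listed did not overlap with higher values and 19.5% with lower values. ELF3, the highest, was at 0.28, 0.13 and 0.39 TPM with control vesicles and at 0.32, 0.09 and 0.12 TPM with NID1 vesicles. EHF was at 0.23, 0.06 and 0.19 TPM and at 0.24, 0.08 and 0.04 TPM. CDX2 was at 0.13, 0 and 0.04 TPM and at 0.03, 0.02 and 0.02 TPM, and LGALS4 at 0.06, 0.19 and 0.37 TPM and at 0, 0 and 0.35 TPM. HNF4A was listed above 0 in 1 library only, at 0.07 TPM, as was A1CF at 0.01 TPM, and VIL1 did not exceed 0.07 TPM. With no low filter no member was called by limma, and 0 had an unadjusted p under 0.05 (adjusted p = 0.567 to 0.919), where 17.5% of genes were called.

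Stellate markers were high in these libraries, with sums of 2044 to 2208 TPM with control vesicles and 1374 to 1639 TPM with NID1 vesicles, mostly VIM, although LRAT was near 0 and DES was not listed. Of 8 tested, 1 was called higher and 3 lower, where 17.8% of all genes tested were higher and 24.6% lower. Leukocyte markers summed to 42.76 to 46.15 TPM with control and 16.01 to 21.33 TPM with NID1 vesicles, and CD68, the 1 tested, was called lower. Of 9 gut transcription factors tested, 4 rose with NID1 vesicles and none fell. HES1 rose from 6.003 ± 0.34 to 18.1 ± 1.69 TPM, KLF5 from 10.7 to 26.7 TPM and the zinc finger factor GATA6 from 3.01 ± 0.642 to 7.52 ± 0.678 TPM. With quantile normalization 8 rose, and with median-ratio scaling 6. Of 7 brush border genes MYO7B alone was lower, at 5.16 against 3.20 TPM, a call lost in 11 of 17 alternatives (adjusted p = 0.00543 to 0.134), among them those without EV-XP-LX-2 replicate 1, 2 or 3 or EV-XP-NID1-LX-2 replicate 2 or 3. With median-ratio scaling 2 brush border genes were higher and none lower. GSN and VILL of the villin family fell from 45.8 to 31.9 and from 4.32 to 2.53 TPM. LGALS3 rose from 50.2 to 68.6 TPM and SYNCRIP, an editing partner of A1CF, from 162 to 204 TPM. LGALS1 was at 2007 TPM with control and 2286 TPM with NID1 vesicles, a call that ended when EV-XP-LX-2 replicate 2 or 3 was left out (adjusted p = 0.0897 and 0.0687, in a range of 0.0164 to 0.105). SERPINA1 fell from 21.0 to 13.3 TPM, the only HNF4A target tested. No enterocyte gene and no CDX target passed the filter, and the 1 secretory gene tested, MUC1, was not called. Among epithelial markers KRT8 fell from 54.8 to 35.4 TPM, CDH1 did not exceed 0.1 TPM and KRT19 was not listed.

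To set the members side by side over all 6 groups, each was ranked within its library among the 14659 genes with a length in all 3 tables, as a percentile by level per length. This is a description across tables, with no test. HNF4A was at 83.0 in SW480-LM3, 19.95 in SW480-P, 10.8 in LV5, 8.42 in LV5-NID1, 2.55 in EV-XP-LX-2 and 1.34 in EV-XP-NID1-LX-2, and only the LX-2 groups overlapped. VIL1 had the same leading pair, at 95.8 and 31.5, and lay between 2.77 and 6.36 in the other groups. EHF was at 90.4 in SW480-LM3 and between 3.22 and 8.04 in every other group, and SW480-P (6.79) overlapped with each of the other 4.

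CDX2 was at 51.4 in SW480-P and 49.6 in SW480-LM3, with overlapping libraries, and at 6.16 in LV5 and 1.31 in LV5-NID1. LV5 and SW480-P are both labelled SW480, and their CDX2 libraries were at 5.50 to 7.09 and at 48.5 to 55.3. ELF3 had another order, with LV5 highest at 88.0, then LV5-NID1 at 79.2, SW480-LM3 at 73.4 and SW480-P at 55.8, and no overlap among these 4. In the LX-2 groups ELF3 was at 8.38 and 7.07, and these overlapped. LGALS4 was low everywhere, from 3.91 in SW480-P to 12.5 in SW480-LM3, and SW480-LM3, LV5 and LV5-NID1 overlapped.

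**Figure D5:**
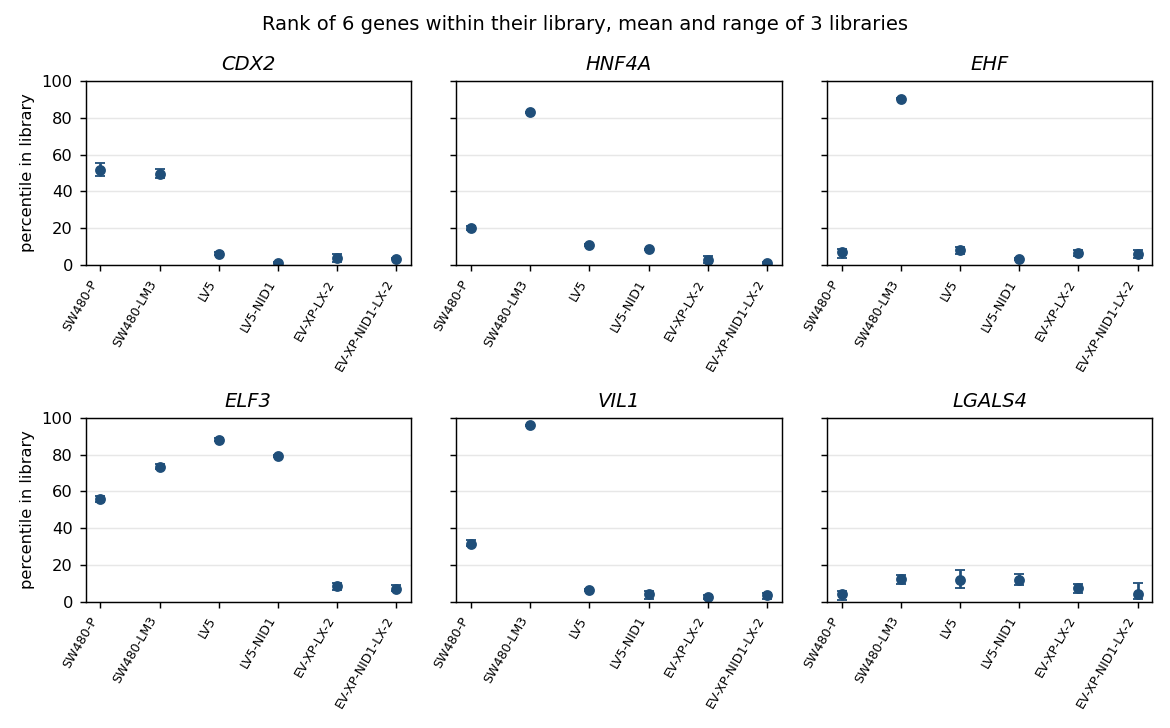
Percentile of 6 members within their library among 14659 genes, by level per length, in the 6 groups. Points are means and bars run from the lowest to the highest of 3 libraries. HNF4A, EHF and VIL1 stand out in SW480-LM3, CDX2 is near 50 in both groups of that table, and ELF3 is highest in LV5.

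By the root mean square difference in percentile over the 18 libraries, among 12909 genes, the genes most like each member were found. HNF4A was nearest to CDH1 (4.77) and the intermediate filament gene NES (4.91), and EHF to AZGP1 (3.49) and the potassium channel subunit KCNE3 (3.6). VIL1 was nearest to the epithelial splicing regulator ESRP1 (3.83) and the Wnt inhibitor NKD1 (4.71), and CDX2 to the ectodysplasin receptor EDAR (3.71) and ERVMER34-1 (4.55). ELF3 was nearest to PPAP2C (5.1) and HKDC1 (5.74), and LGALS4 to SMC1B (3.54) and ADAMTS9 (3.66). The median difference over all genes was 42.6 to 48.7 for these members, and libraries of a group share their cells, so this likeness is a description.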

How the data were processed

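Poly(A) RNA was sequenced. The submitters' processing notes name HISAT2 2.1.0 and Bowtie2 2.3.5 without a role; the counting tool and annotation were not given in the sources used here. The deposited signal of SW480-P and SW480-LM3 is, from its values, a read count divided by a size factor, since 100% came out as whole reads within 0.05. The other deposited tables hold TPM, inferred from library sums. In the signal table the HNF4A row carries another symbol in a second column, and the first column and its gene identifier were used.

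The members and gene lists were chosen with earlier results of these data known. limma 3.58.1 (R 4.3.3) with a variance trend was fitted to log2 of the value plus 1, each table alone, and fold changes on that scale are understated for low genes. Levels per length use exon lengths of GENCODE 29. Named genes are all members, up to 3 called genes with the smallest adjusted p and a mean of at least 1 per list, the most abundant marker, and the 2 nearest genes by rank. CDH1, EPCAM, ELF3-AS1, HES1 and CAPG in LV5, and CDH1 in LX-2 and SW480-LM3, were named after their values had been seen. Some listed genes enter the counts but are not reported here. Alternatives were other scalings, pseudocounts and filters, a replicate block, each library left out, and edgeR 4.0.16 and DESeq2 1.42.0 on recovered reads. The scripts were tested on simulated data.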

Additional observations from a re-analysis of the deposited data

How the results depend on the processing

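Across the alternatives run, HNF4A, EHF, ELF3, VIL1, TFF3 and A1CF kept their calls in SW480-LM3, and no result changed sign while called. Under the low filter EHF, TFF3 and A1CF could only be called higher. Genes called in SW480-LM3, 12749, became 6592 where a log2 change of at least 1 was required, 12485 to 12563 with 1 library left out, 12687 with edgeR and 12386 with DESeq2. With library-total scaling 7487 of 12703 called genes were higher, against 6376 of 12749. In LX-2, 6687 became 280 at that log2 change and 4762 to 7132 with 1 library left out. In LV5-NID1, 2572 became 220 at that log2 change, 1532 with no low filter, and 1607 with no low filter and a pseudocount of 0.1. With 1 library left out the count was 713 to 3325. It was 713, 714 and 1045 without LV5 replicate 1, 2 or 3. Without LV5-NID1 replicate 1, 2 or 3 it was 1675, 750 and 3325, so only leaving out LV5-NID1 replicate 3 raised it. Members called in LV5-NID1, 1, became 2 and 3 in these filter settings and 0 at a log2 change of at least 1. Members called with 1 library left out were 6 to 6, 0 to 0 and 1 to 1.

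With group means removed, same-numbered libraries correlated at r of -0.047 to 0.063. Some libraries correlated best with their own number and others did not. These values cannot settle whether replicate numbers mark a shared batch. With a replicate block 890 genes were called in LV5-NID1 in place of 2572 and no member's call changed. Among single genes named, 110 values under an alternative lost their call, 4 gained one and 1376 stayed on the same side. The unknown depth of the TPM tables limits members below 1 TPM.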
